A study of Homo sapiens with 27 samples.

Results

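The 44 genes described here act in the G2 phase of the cell cycle and in mitosis. They were taken as a fixed list of gene symbols, put together with earlier results of these data known, and were matched through Ensembl gene identifiers. All 44 were listed in both deposited expression tables, which hold 41686 human genes (shRNA libraries) and 34742 human genes (siRNA libraries). The cells were SHP77, an established human line derived from small cell lung cancer, a fast-dividing neuroendocrine tumour. In the first experiment cells carried an shRNA against GFP (shGFP, 2 libraries) or either of a pair of shRNAs against circRMST, a circular RNA made from the RMST locus (circRMST shRNA 1 and circRMST shRNA 2, 2 libraries each). All of these cells, controls included, had been kept in 3 µg/ml puromycin for at least 3 days, and total RNA was sequenced from 1000 ng of input. In the other experiment cells were transfected for 72 h with a control siRNA (si-control, 3 libraries), with either of a pair of SOX2 siRNAs (2 libraries each) or with either of a pair of NKX2-1 siRNAs (2 libraries each), and 500 ng of RNA was used. SOX2 and NKX2-1 are transcription factors of the foregut and lung lineage. Of the 27 samples of the series, these 17 RNA-seq libraries were used, and 10 ChIP-seq samples were not analysed here. All libraries come from 1 cell line, and replicates are called biological without a statement that they came from separate cultures. The p-values thus measure the spread between replicate libraries of the same group only. Where a knockdown is averaged over its pair of reagents, a difference between the reagents does not enter that spread.

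Entry into mitosis is driven by CDK1 bound to A- and B-type cyclins. The transcription factors FOXM1 and MYBL2 switch on many genes needed at this stage, MYBL2 together with the MuvB complex. The spindle, the kinetochores and the checkpoint that watches over them then line up the chromosomes. The anaphase-promoting complex with its activator CDC20 releases them by having securin (PTTG1) and B-type cyclins destroyed, which frees separase (ESPL1). Small cell lung cancers usually lack RB1 function and express these genes at high levels.

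Values are normalized counts, that is reads per gene divided by a size factor of the library, and the 2 tables were normalized separately and are never compared with each other in level. The shRNA libraries held 46.9 to 57.4 megareads, of which 46.5% to 51.5% lay on mitochondrial genes, and the siRNA libraries held 15.5 to 50.1 megareads. The lowest read count of any of the 44 genes in any library was 271 among the shRNA libraries and 159 among the siRNA libraries, both in SPC25. SOX2 was at 1084 to 1191 normalized counts in the si-control libraries and at 389 to 466 in the SOX2 siRNA libraries (2.70-fold lower). NKX2-1 was at 2145 to 2357 with si-control and at 796 to 1070 with the NKX2-1 siRNAs (2.45-fold lower), while SOX2 was at 2098 to 2285 there. The gene-level tables give no separate value for circRMST, so its knockdown could not be checked. All 6 neuroendocrine markers examined (INSM1, CHGA, SYP, NCAM1, DLL3 and GRP) were above 50 normalized counts in every library, and of 5 fibroblast and 6 blood or endothelial markers only LUM and PECAM1 were.

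Some of the 44 genes carry known elements of cell-cycle promoters near their start. Among these are the cell cycle genes homology region (CHR, TTTGAA), which is bound by the MuvB complex, and the CCAAT box, which is bound by NF-Y. Promoter windows of 300 bases (250 before and 50 after the start) were available in RefSeq (GRCh38.p14) for 37 of the 44 genes, with 47 start sites. TTTGAA, searched on both strands, was present in 28 of these 47 windows (59.6%), against 15.2% of all 35116 windows of the same length. CCAAT, on both strands, was present in 34 (72.3%) against 34.6%, and the 2 motifs occurred in the same window in 23 (48.9%) against 5.90%. The variant TTCGAA was present in 3 windows (6.38% against 1.45%). Of 39 TTTGAA matches, 26 lay within 60 bases of the start. Where windows of the same gene overlap, a site can be counted in more than 1 window, as in CDC25C and ECT2. The windows printed here hold the 150 bases before the start and the 50 bases from it, 5′ to 3′ on the strand of the gene, with TTTGAA and CCAAT in capitals on whichever strand they were found (ATTGG is CCAAT on the other strand). They belong to 5 of the 6 genes that fell most and to 4 of the 6 that rose most after circRMST knockdown, so that the 2 groups can be compared; FOXM1, AURKA and UBE2C had no entry in the table, nor had BUB3, TTK, BIRC5 and TPX2.
NUSAP1: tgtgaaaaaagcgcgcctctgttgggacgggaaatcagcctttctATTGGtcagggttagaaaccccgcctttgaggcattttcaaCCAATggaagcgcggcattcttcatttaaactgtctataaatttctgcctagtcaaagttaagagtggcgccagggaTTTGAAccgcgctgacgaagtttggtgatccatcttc
CENPE: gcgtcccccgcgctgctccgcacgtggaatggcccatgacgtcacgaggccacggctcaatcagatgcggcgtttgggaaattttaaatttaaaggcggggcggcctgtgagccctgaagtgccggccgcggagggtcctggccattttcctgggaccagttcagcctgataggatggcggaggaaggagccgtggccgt
SPC24: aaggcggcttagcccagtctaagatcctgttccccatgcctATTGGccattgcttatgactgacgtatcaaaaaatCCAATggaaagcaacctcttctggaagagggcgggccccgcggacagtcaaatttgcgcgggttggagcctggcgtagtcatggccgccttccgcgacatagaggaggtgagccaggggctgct
PRC1: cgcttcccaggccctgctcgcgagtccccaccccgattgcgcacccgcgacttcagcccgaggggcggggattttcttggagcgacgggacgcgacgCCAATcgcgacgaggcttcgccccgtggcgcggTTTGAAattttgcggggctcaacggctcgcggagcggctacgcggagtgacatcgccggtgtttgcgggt
MYBL2: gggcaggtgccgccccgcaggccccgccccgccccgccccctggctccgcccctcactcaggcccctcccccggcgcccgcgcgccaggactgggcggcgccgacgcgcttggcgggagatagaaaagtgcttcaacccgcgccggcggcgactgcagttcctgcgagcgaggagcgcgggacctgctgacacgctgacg
PLK1: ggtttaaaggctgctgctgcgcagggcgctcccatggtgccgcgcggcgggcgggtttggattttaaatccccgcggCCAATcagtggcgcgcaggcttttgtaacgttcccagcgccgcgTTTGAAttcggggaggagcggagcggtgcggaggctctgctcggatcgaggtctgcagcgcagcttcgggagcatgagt
CDC20: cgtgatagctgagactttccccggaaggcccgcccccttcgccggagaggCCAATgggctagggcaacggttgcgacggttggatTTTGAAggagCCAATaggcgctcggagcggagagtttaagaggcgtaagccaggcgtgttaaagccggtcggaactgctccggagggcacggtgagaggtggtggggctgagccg
ESPL1: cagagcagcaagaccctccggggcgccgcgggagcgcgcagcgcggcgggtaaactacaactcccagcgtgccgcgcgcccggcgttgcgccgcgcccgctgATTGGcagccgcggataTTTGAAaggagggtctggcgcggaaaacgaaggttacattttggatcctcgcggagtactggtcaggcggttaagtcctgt
KIF23: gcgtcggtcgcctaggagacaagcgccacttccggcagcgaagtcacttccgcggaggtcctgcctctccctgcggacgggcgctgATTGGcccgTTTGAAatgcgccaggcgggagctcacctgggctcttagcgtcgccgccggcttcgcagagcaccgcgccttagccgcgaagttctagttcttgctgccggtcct
These windows lie on GRCh38.p14 at chr15:41332731-41332930 (NUSAP1, plus strand), chr4:103198294-103198493 (CENPE, minus), chr19:11155733-11155932 (SPC24, minus), chr15:90994486-90994685 (PRC1, minus), chr20:43666964-43667163 (MYBL2, plus), chr16:23678739-23678938 (PLK1, plus), chr1:43358831-43359030 (CDC20, plus), chr12:53268149-53268348 (ESPL1, plus) and chr15:69414199-69414398 (KIF23, plus). A TTTGAA match was present in all 4 of the genes that rose (PLK1, CDC20, ESPL1 and KIF23) and in NUSAP1 and PRC1 among those that fell, and it was not found in the printed windows of CENPE, SPC24 and MYBL2. Over the 37 genes with a window, those with a TTTGAA match had a median log2 fold change of -0.24 after circRMST knockdown (25 genes, 5 higher and 16 lower), and those without had -0.24 (12 genes, 8 lower). Of the 12 without the motif 0 were higher by limma, at an adjusted or an unadjusted p under 0.05, and 0 by edgeR or DESeq2. Among all genes tested 27.8% were higher and 25.9% lower by limma at an adjusted p under 0.05. The motif was in 67.6% of the 37 genes and few of the 37 rose, so these counts do not set the groups apart. Whether the motif goes with a rise was not tested. After SOX2 knockdown the medians were 0.31 with and 0.30 without the motif. A match is a description of the letters only.

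**Figure D1:**
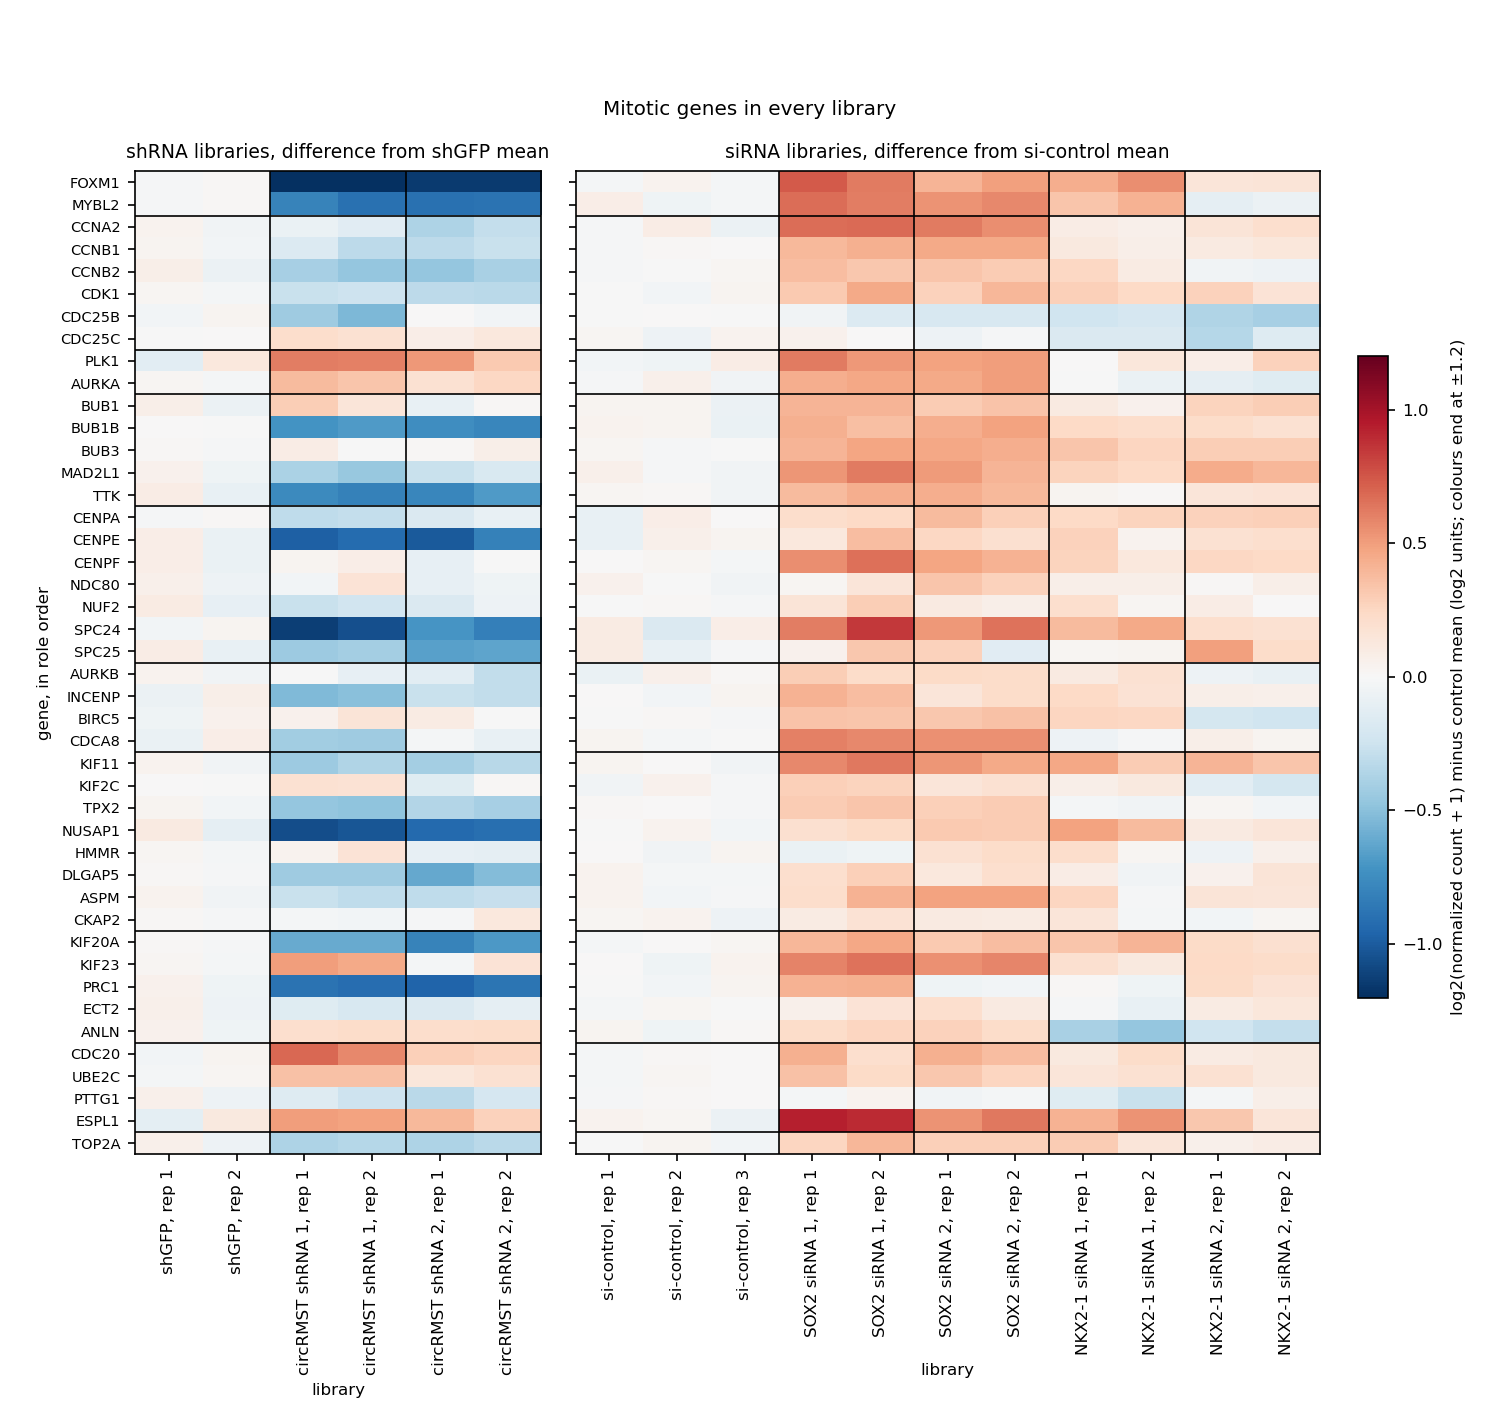
Each row is a gene, in the order of the roles used in the text, and each column a library; colours give log2(normalized count + 1) minus the mean of the control libraries of that table (log2 units, colours end at ±1.2, lines separate roles and groups). FOXM1 at the top is the darkest blue in the 4 circRMST shRNA libraries, the 4 SOX2 siRNA libraries are red in nearly every row, and the 4 NKX2-1 siRNA libraries are paler, with ANLN and CDC25B in blue.

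The first comparison asked how the mitotic genes differed when circRMST was knocked down. Most of them fell, the transcription factor FOXM1 by the most, while PLK1, AURKA and 3 of the 4 genes of anaphase and mitotic exit rose. By limma with Benjamini-Hochberg adjustment over all 19068 genes tested, 27 of the 44 genes were lower and 7 were higher at an adjusted p under 0.05. Among all genes tested 25.9% were lower and 27.8% were higher, against 61.4% and 15.9% of the mitotic genes. Their median log2 fold change was -0.23, where that of all genes was 0.00, and the median size of the change, whatever its direction, was 0.29 against 0.39 for all genes. In 24 of the 44 every knockdown library lay below both shGFP libraries (28.2% of all genes tested), and in 7 every one lay above (28.6%). A fall of more than 1.5-fold was measured for 9 genes and a rise of that size for 0, against 16.0% and 11.4% of all genes tested. The genes tested reach down to a mean of 10 normalized counts, whereas the lowest mean among the 44 was 345. The sizes of change are thus not compared at like levels. These are bulk libraries, so fewer cells in G2 and mitosis and less RNA in each such cell cannot be told apart.

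FOXM1, the forkhead factor that drives G2/M transcription, changed most. It was at 1796 and 1828 normalized counts in the shGFP libraries, at 617 and 623 with circRMST shRNA 1 and at 816 and 817 with circRMST shRNA 2. The 3 groups did not overlap, and both shRNA groups lay far below the controls. The log2 fold change was -1.35 (SE 0.07; 2.54-fold lower; adjusted p = 4.33e-13, limma). The fall was larger with shRNA 1 than with shRNA 2 (difference -0.40, SE 0.09, adjusted p = 0.0018). FOXM1 overlaps ITFG2 and RHNO1 on the genome, and the strand setting used in counting is not given in the sources used here. MYBL2 (B-Myb), the partner of MuvB, was at 1650 and 1677 in the controls, at 954 and 897 with shRNA 1 and at 893 and 898 with shRNA 2. Every knockdown library was below the controls and the shRNAs gave nearly the same level. Its log2 fold change was -0.87 (SE 0.07; 1.83-fold lower; adjusted p = 5.18e-10).

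Among the cyclins, CDK1 and the phosphatases that activate it, 5 of 6 fell and by less than the factors above. CDK1, the mitotic kinase itself, was at 1670 and 1615 in the controls and at 1310 to 1380 in the 4 knockdown libraries, without overlap (log2 fold change -0.29, SE 0.07). CCNB1 and CCNB2, its B-type cyclins, had log2 fold changes of -0.27 (SE 0.06) and -0.43 (SE 0.07), and CCNA2 (cyclin A2) of -0.22 (SE 0.06). CDC25B, a phosphatase that removes the inhibitory phosphates from CDK1, was at 2291 and 2403 in the controls, at 1741 and 1614 with shRNA 1 and at 2355 and 2287 with shRNA 2. It was below the controls with shRNA 1 only: the log2 fold change was -0.49 (SE 0.07) with shRNA 1 and -0.02 (SE 0.07, adjusted p = 0.874) with shRNA 2, and the difference of -0.47 (SE 0.07) passed the test (adjusted p = 3.96e-05). CDC25C, the related phosphatase, was at 0.15 (SE 0.08, adjusted p = 0.12).

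The kinases PLK1 and AURKA both rose. PLK1, which acts at centrosomes, kinetochores and the site of cell division, was at 987 and 1179 in the shGFP libraries, at 1649 and 1638 with shRNA 1 and at 1551 and 1342 with shRNA 2. All 4 knockdown libraries were above both controls, although the controls themselves lay apart. The log2 fold change was 0.51 (SE 0.08; 1.43-fold higher; adjusted p = 8.22e-06). AURKA, the spindle pole kinase that activates PLK1, was at 3969 and 3856 in the controls and at 4446 to 5090 in the knockdown libraries, also without overlap (log2 fold change 0.29, SE 0.05, adjusted p = 5.63e-05). ERN2 overlaps PLK1 on the genome, and pseudogene copies of AURKA are annotated.

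Of the 5 spindle checkpoint genes, which hold back anaphase until every kinetochore is attached, 3 fell and 2 did not pass the test. BUB1B (BubR1) was at 6521 and 6489 in the controls and at 3778 to 4054 in the knockdown libraries (log2 fold change -0.73, SE 0.05, adjusted p = 2.1e-11). TTK (MPS1), the kinase that starts checkpoint signalling, was at 5732 and 5085 against 3078 to 3363 (log2 fold change -0.76, SE 0.06). Neither gene's groups overlapped. MAD2L1, which holds CDC20 inactive, had a log2 fold change of -0.32 (SE 0.06), whereas BUB1 stood at 0.09 (SE 0.06) and BUB3 at 0.04 (SE 0.05). BUB1B shares its locus with the BUB1B-PAK6 read-through gene.

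Of the 7 centromere and kinetochore genes 5 fell. CENPE, the kinesin that moves chromosomes to the spindle equator, was at 7180 and 6392 in the controls, at 3442 and 3573 with shRNA 1 and at 3359 and 3865 with shRNA 2. All 4 knockdown libraries lay far below both controls and the shRNAs overlapped (log2 fold change -0.93, SE 0.06; 1.91-fold lower; adjusted p = 9.56e-12). SPC24, a subunit of the NDC80 complex that binds microtubules, was at 1047 and 1095 in the controls, at 488 and 515 with shRNA 1 and at 653 and 606 with shRNA 2. The groups did not overlap, and shRNA 1 gave the lower level (log2 fold change -0.93, SE 0.09, adjusted p = 3.38e-09; difference between shRNAs -0.33, SE 0.10, adjusted p = 0.0223). Its partner subunit SPC25 had a log2 fold change of -0.53 (SE 0.11), NUF2 of -0.18 (SE 0.06) and the complex's name-giving subunit NDC80 of -0.01 (SE 0.07, adjusted p = 0.953). The fold changes of the 4 subunits of that complex thus ran from -0.93 to -0.01 in log2 units. CENPA, the histone variant that marks centromeres, was at -0.21 (SE 0.09, adjusted p = 0.0401), and CENPF, a large kinetochore protein, at 0.00 (SE 0.05).

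In the chromosomal passenger complex, which corrects wrong attachments, the scaffold INCENP fell (log2 fold change -0.40, SE 0.06). CDCA8 (borealin) fell as well (-0.24, SE 0.07), with its values below the controls for shRNA 1 only (1040 and 1035 against 1320 and 1469 in shGFP, with 1373 and 1311 for shRNA 2). The kinase AURKB (-0.13, SE 0.09) and BIRC5 (survivin; 0.07, SE 0.05) did not pass the test.

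Of the 8 spindle motors and microtubule proteins 5 fell, and 3 did not pass. NUSAP1, which bundles spindle microtubules, was at 10693 and 9230 in the controls, at 4761 and 4892 with shRNA 1 and at 5188 and 5299 with shRNA 2. All 4 knockdown libraries lay far below both controls (log2 fold change -0.98, SE 0.06; 1.97-fold lower; adjusted p = 6.19e-13). DLGAP5, TPX2, KIF11 and ASPM, which build or focus the bipolar spindle, had log2 fold changes of -0.50, -0.42, -0.39 and -0.29 (SE 0.05 each). KIF2C (0.06, SE 0.06), HMMR (0.00, SE 0.05) and CKAP2 (0.01, SE 0.05) did not pass the test.

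The 5 genes of the central spindle and cytokinesis split. PRC1, which bundles the antiparallel microtubules of the central spindle, was at 7981 and 7461 in the controls, at 4177 and 4083 with shRNA 1 and at 3958 and 4202 with shRNA 2. Its groups did not overlap and the ranges of the shRNAs overlapped (log2 fold change -0.91, SE 0.05, adjusted p = 8.43e-13). KIF20A, a kinesin of the same structure, had a log2 fold change of -0.67 (SE 0.06), and ECT2, which switches on RhoA for the contractile ring, of -0.16 (SE 0.05). ANLN (anillin), which anchors that ring, rose by 0.21 (SE 0.05) in log2 units. KIF23, the motor of centralspindlin, was at 4886 and 4712 in the controls, at 6803 and 6572 with shRNA 1 and at 4717 and 5366 with shRNA 2. It rose by 0.27 (SE 0.06) over both shRNAs, but the libraries of shRNA 2 overlapped with the controls (0.07, SE 0.06, adjusted p = 0.398), and the difference between shRNAs was 0.41 (SE 0.06, adjusted p = 5.09e-05).

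Of the 4 genes of anaphase and mitotic exit 3 rose. CDC20, the activator of the anaphase-promoting complex, was at 1542 and 1607 in the controls, at 2538 and 2348 with shRNA 1 and at 1916 and 1880 with shRNA 2. The 3 groups did not overlap, and shRNA 1 gave the higher level (log2 fold change 0.45, SE 0.06, adjusted p = 1.94e-06; difference between shRNAs 0.36, SE 0.07). ESPL1 (separase), the protease that cuts cohesin, was at 640 and 754 in the controls, at 981 and 968 with shRNA 1 and at 912 and 842 with shRNA 2 (log2 fold change 0.41, SE 0.09, adjusted p = 0.000274). UBE2C, the ubiquitin-conjugating enzyme of the complex, was at 1720 and 1787 in the controls and at 1926 to 2239 in the knockdown libraries (0.26, SE 0.06, adjusted p = 0.00111). PTTG1 (securin), which keeps separase inactive, fell (-0.23, SE 0.06). TOP2A, which untangles sister chromosomes, fell by 0.35 (SE 0.05) in log2 units, from 33826 and 31271 to between 25159 and 26015.

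**Figure D2:**
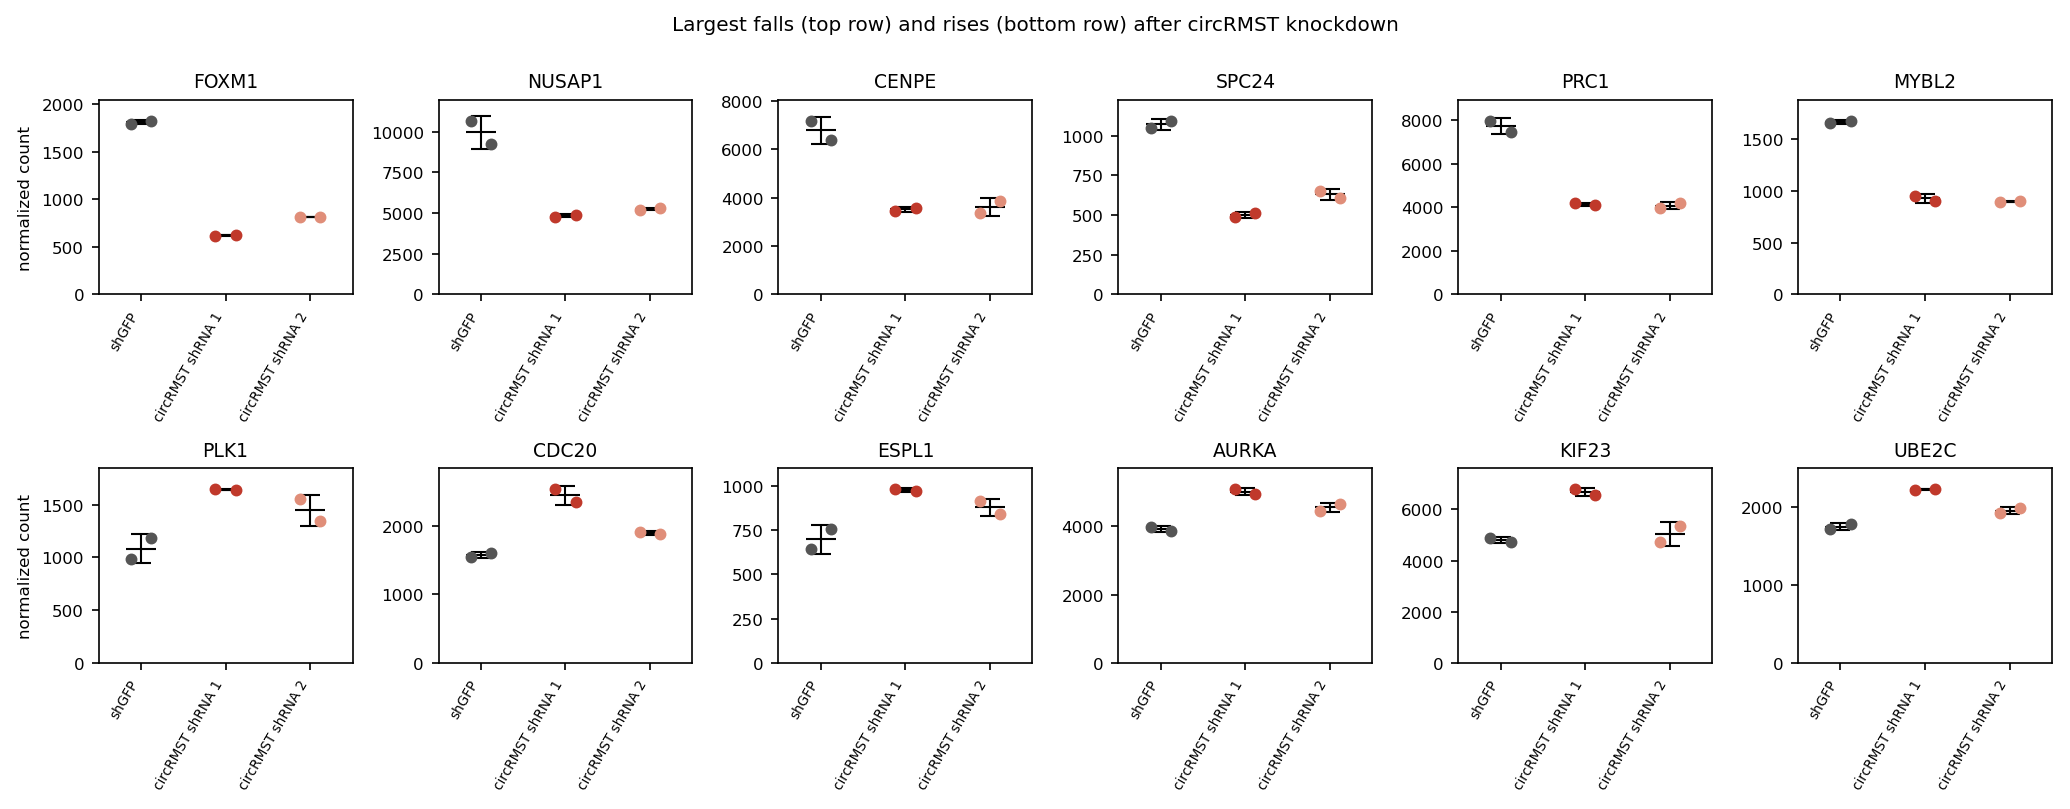
Each panel shows 1 gene in the shRNA libraries; points are libraries, and the horizontal line and bars are the mean ± SD of 2 libraries (normalized counts, axes start at 0). The top row holds the 6 genes that fell most, all with both shRNAs below shGFP, and the bottom row the 6 that rose most, of which KIF23 overlaps with shGFP for shRNA 2.

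With each shRNA taken alone, 26 genes were lower and 9 higher for shRNA 1 (24.2% and 26.7% of all genes tested), and 22 lower and 5 higher for shRNA 2 (22.9% and 24.5%). Lower with both shRNAs were 21 of the 44 genes (17.4% of all genes tested), and higher with both were 5, namely PLK1, AURKA, CDC20, ESPL1 and ANLN (19.6%). Tested directly, 6 genes were higher and 5 lower with shRNA 1 than with shRNA 2 (10.9% and 8.2% of all genes tested). That contrast is the least firm here: without the mean-variance trend in limma none of the 11 differences passed, and without shRNA 1 replicate 1 the counts were 3 and 3, without shRNA 1 replicate 2 the count lower was 3, and without shRNA 2 replicate 1 the counts were 2 and 3. Of the falls over both shRNAs, those of CCNA2, CENPA, ECT2, NUF2 and PTTG1 no longer passed without shGFP replicate 1, and those of CDCA8 and CENPA no longer passed without shGFP replicate 2.

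Other features of these libraries moved with the groups. Mitochondrial genes took 46.5% to 47.6% of reads in the shGFP libraries and 48.4% to 51.5% in the knockdown libraries. The neuroendocrine marker sum was at 25542 to 27493 in the shGFP libraries and at 17330 to 22668 in the knockdown libraries, with 4 of its 6 genes lower, GRP (log2 fold change -2.80) and INSM1 (-1.33) among them, and 1 higher. Of the fibroblast list the sum was at 172 to 253 in shGFP and at 373 to 812 in the knockdown libraries. That rise was in LUM (97.8 to 121 against 362 to 797), while DCN and COL1A1 were lower (log2 fold changes -3.53, SE 0.85, and -2.78, SE 0.75), both at low levels. The endothelial marker PECAM1 was at 357 to 366 in shGFP and at 143 to 165 in the knockdown libraries (adjusted p = 1.63e-07, limma), and the defining blood genes PTPRC, CD3E and LYZ were at 0 to 12.3. The 7SL RNA genes took 0.180% to 0.186% of reads in shGFP and 0.379% to 0.467% in the knockdown libraries. The part of these differences in the mitotic results was not tested. The shGFP libraries also held scattered reads on 1547 protein-coding genes that had no read in any siRNA library. Of these genes 82.4% to 85.6% had a read in shGFP, against 14.7% to 20.5% in the knockdown libraries. The 99th percentile of their excess in shGFP was 38.7 normalized counts. The smallest fall among the 27 mitotic genes called lower was 101 normalized counts. What such reads add to each of the 44 genes was not tested. Scaling all libraries to equal totals moved the median of all genes by -0.14, and the median of the 44 genes was then -0.38, with 31 lower and 5 higher.

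The next comparison asked how the same genes differed after SOX2 knockdown. They rose almost throughout: 39 of the 44 genes were higher and 1, CDC25B, was lower by limma at an adjusted p under 0.05. Among all 16750 genes tested 27.6% were higher and 28.7% lower, against 88.6% and 2.27% of the mitotic genes. Their median log2 fold change was 0.34 (0.01 for all genes), and the changes were modest, up to 1.68-fold. In 37 of the 44 every SOX2 siRNA library lay above all 3 si-control libraries (24.5% of all genes tested) and in 1 every library lay below (25.0%). Each siRNA alone gave nearly the same count, with 38 higher and 1 lower for siRNA 1 (25.8% and 27.3% of all genes; CDC25B no longer passed without any 1 of the control replicates or siRNA 1 replicate 2) and 37 higher and 1 lower for siRNA 2 (24.4% and 24.7%), and 35 were higher with both (18.6%). Together the 44 genes took 0.477% to 0.486% of all normalized counts in the si-control libraries, 0.600% to 0.621% in the SOX2 siRNA libraries and 0.508% to 0.567% in the NKX2-1 siRNA libraries.

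FOXM1 was at 960, 1003 and 956 normalized counts in the si-control libraries, at 1624 and 1497 with SOX2 siRNA 1 and at 1292 and 1365 with SOX2 siRNA 2. The 3 groups did not overlap, and siRNA 1 gave the higher level (log2 fold change 0.56, SE 0.05, adjusted p = 1.1e-10). The difference between siRNAs was 0.23 (SE 0.06, adjusted p = 0.00989), and it no longer passed without replicate 1 of either siRNA. MYBL2 was at 2072, 1888 and 1931 in the controls and at 3130, 3003, 2852 and 2926 with the SOX2 siRNAs. Its knockdown libraries were all above the controls and close to one another (log2 fold change 0.60, SE 0.04; 1.52-fold higher; adjusted p = 1.04e-12).

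Of the cyclin and CDK1 group 4 of 6 rose. CCNA2 (cyclin A2) was at 1483, 1589 and 1425 in the controls, at 2390 and 2399 with siRNA 1 and at 2311 and 2204 with siRNA 2. No SOX2 siRNA library came near the controls (log2 fold change 0.63, SE 0.04; 1.55-fold higher; adjusted p = 9.45e-13). EXOSC9 overlaps CCNA2 on the genome. CCNB1, CDK1 and CCNB2 had log2 fold changes of 0.43 (SE 0.03), 0.36 (SE 0.05) and 0.34 (SE 0.04). CDC25B was at 8674, 8735 and 8682 in the controls and at 8424, 7773, 7613 and 7609 with the SOX2 siRNAs. Every knockdown library was below the controls, by a small margin in the first of them (log2 fold change -0.15, SE 0.03; 1.11-fold lower; adjusted p = 0.000236). CDC25C was at 0.00 (SE 0.07).

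Both kinases rose, PLK1 by 0.53 (SE 0.05) and AURKA by 0.46 (SE 0.03) in log2 units. All 5 checkpoint genes rose, with log2 fold changes from 0.36 for BUB1 to 0.52 for MAD2L1. Of the 7 centromere and kinetochore genes 6 rose, and their sizes differed. SPC24 was at 359, 299 and 355 in the controls, at 515 and 605 with siRNA 1 and at 482 and 529 with siRNA 2, without overlap (log2 fold change 0.66, SE 0.08; 1.58-fold higher; adjusted p = 4.01e-08). CENPF followed with 0.53 (SE 0.03), while CENPA, CENPE, NDC80 and NUF2 were between 0.15 and 0.28, and SPC25 did not pass the test (0.13, SE 0.10).

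All 4 genes of the passenger complex rose. CDCA8 was at 1649, 1590 and 1605 in the controls and at 2448, 2413, 2367 and 2362 with the SOX2 siRNAs, a narrow group far above the controls (log2 fold change 0.57, SE 0.04; 1.48-fold higher; adjusted p = 1.36e-12). BIRC5, INCENP and AURKB had log2 fold changes of 0.34 (SE 0.03), 0.29 (SE 0.04) and 0.24 (SE 0.04). Of the spindle genes 7 of 8 rose, from 0.12 for CKAP2 to 0.55 for KIF11, the kinesin that pushes the spindle poles apart. HMMR (0.07, SE 0.05) did not pass the test.

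All 5 genes of the central spindle and cytokinesis rose. KIF23 was at 1520, 1462 and 1565 in the controls, at 2294 and 2383 with siRNA 1 and at 2216 and 2271 with siRNA 2, without overlap (log2 fold change 0.60, SE 0.04; 1.51-fold higher; adjusted p = 1.4e-12). PRC1 was the gene on which the siRNAs differed most. It was at 2365, 2330 and 2438 in the controls, at 3168 and 3194 with siRNA 1 and at 2296 and 2330 with siRNA 2. Only siRNA 1 gave a higher level (0.42, SE 0.04, against -0.04, SE 0.04, with siRNA 2), and the difference between siRNAs was 0.46 (SE 0.05, adjusted p = 4.35e-08).

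Of the anaphase genes 3 of 4 rose. ESPL1 was at 1294, 1276 and 1198 in the controls, at 2390 and 2338 with siRNA 1 and at 1819 and 1953 with siRNA 2. The groups did not overlap, and this was the largest rise among the 44 genes (log2 fold change 0.75, SE 0.05; 1.68-fold higher; adjusted p = 4.02e-13), with siRNA 1 above siRNA 2 by 0.33 (SE 0.06, adjusted p = 0.000448). CDC20 (0.36, SE 0.04) and UBE2C (0.29, SE 0.04) rose, whereas PTTG1 stood at -0.01 (SE 0.04). TOP2A rose by 0.31 (SE 0.04). Tested directly, 5 genes were higher and 2 lower with SOX2 siRNA 1 than with siRNA 2 (8.08% and 10.4% of all genes tested). Without siRNA 2 replicate 1 these counts were 3 and 1, and without siRNA 2 replicate 2 the count lower was 1. HMMR was the largest in the lower direction (-0.27, SE 0.06), being at 1523 and 1550 with siRNA 1, at 1828 and 1870 with siRNA 2 and at 1614, 1563 and 1639 in the controls. The neuroendocrine marker sum was at 41148 to 41675 in the controls and at 39566 to 44582 with the SOX2 siRNAs, which overlap, but 3 of its 6 genes were lower and 1 higher: GRP was at 4674 to 4790 in the controls and at 1863 to 2052 with the SOX2 siRNAs (-1.25, SE 0.03), NCAM1 (-0.39) and SYP (-0.25) were lower and INSM1 (0.47) was higher. The fibroblast sum was at 84.9 to 115 against 216 to 291, mostly LUM, and PECAM1 was at 327 to 341 against 64.0 to 123 (-1.96, SE 0.10). Mitochondrial genes took 9.95% to 10.3% of reads in the controls and 6.90% to 8.96% with the SOX2 siRNAs. The part of these differences in the mitotic results was not tested.

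**Figure D3:**
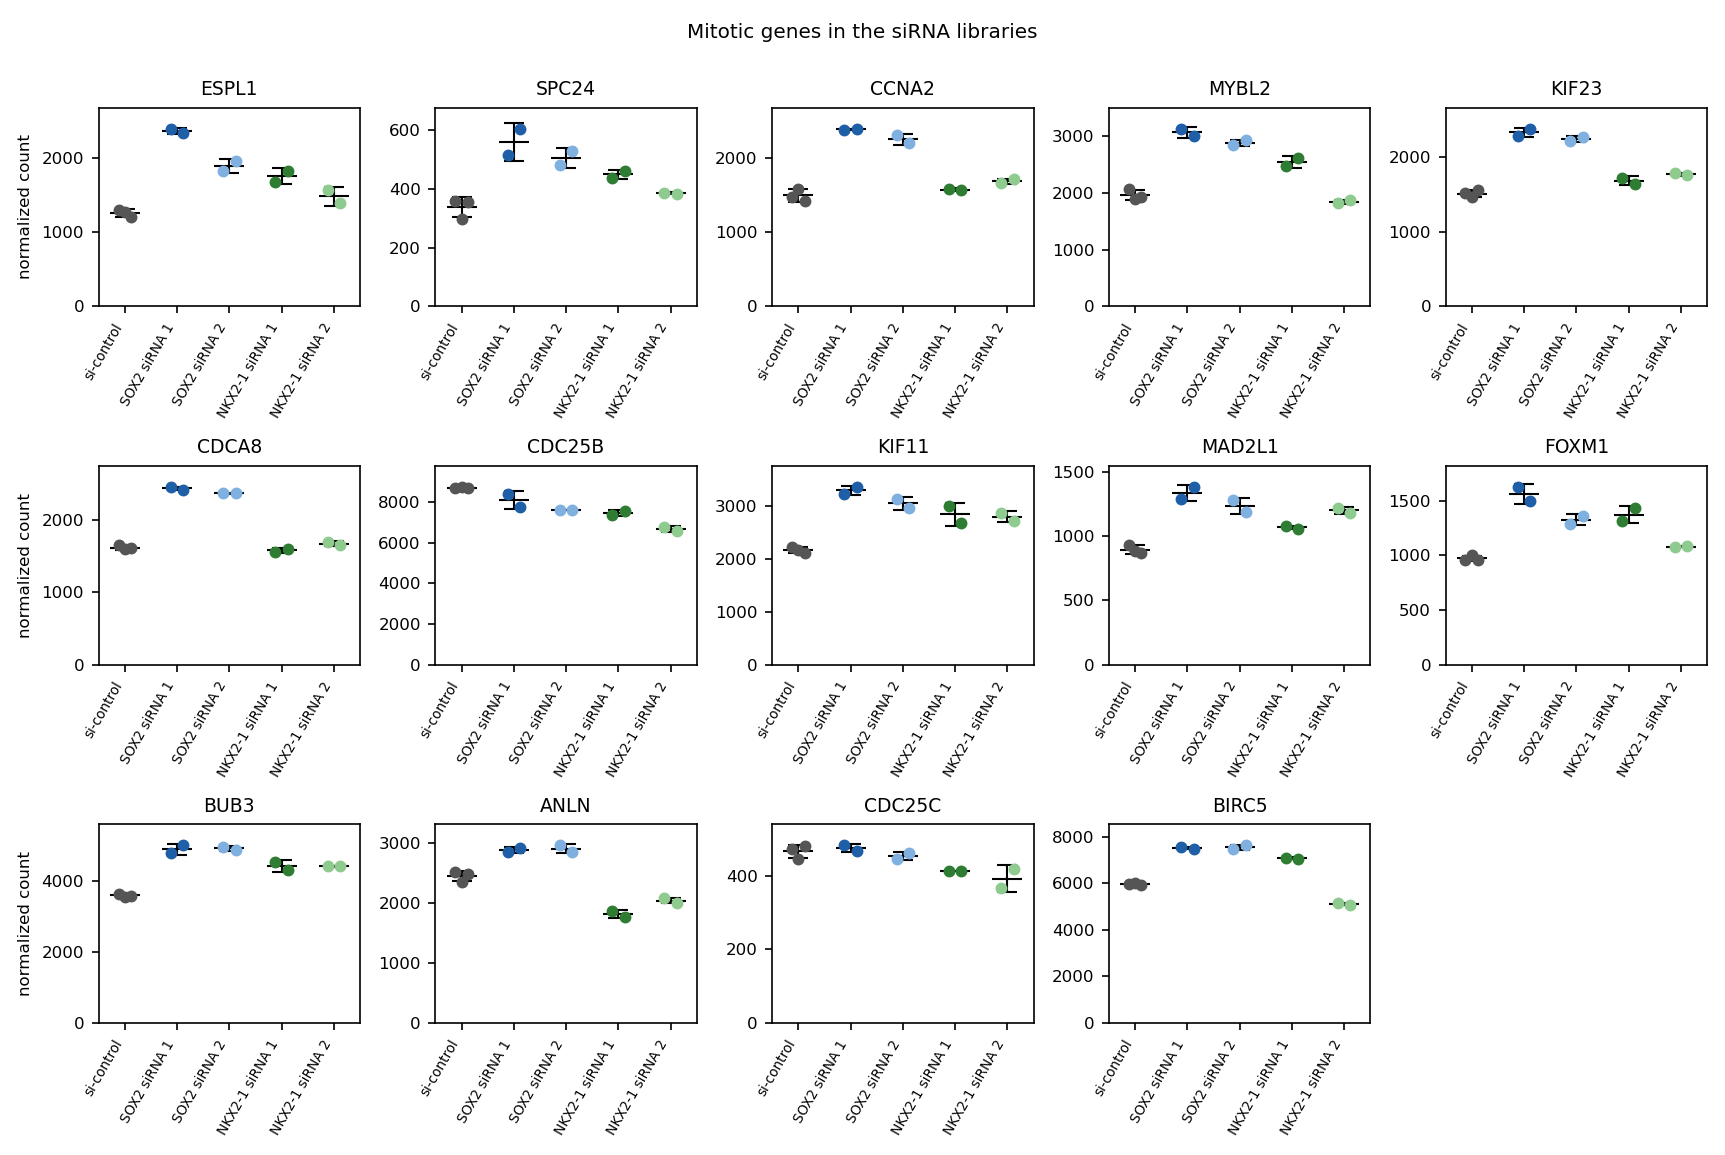
Each panel shows 1 gene in the siRNA libraries; points are libraries, and the horizontal line and bars are the mean ± SD of 3 (si-control) or 2 libraries (normalized counts, axes start at 0). ESPL1, CCNA2, KIF23 and CDCA8 are highest in the blue SOX2 siRNA groups, ANLN and CDC25B are lowest in the green NKX2-1 siRNA groups, and BIRC5 lies above si-control with NKX2-1 siRNA 1 and below it with NKX2-1 siRNA 2.

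The NKX2-1 siRNA libraries were compared with the same 3 si-control libraries, so these fold changes and those for SOX2 share their controls and are given side by side only. After NKX2-1 knockdown 23 of the 44 genes were higher and 3 lower by limma at an adjusted p under 0.05, against 18.5% and 21.4% of all genes tested. That was 52.3% and 6.82% of the mitotic genes, with a median log2 fold change of 0.13 (0.00 for all genes). In 19 every knockdown library lay above the controls (15.9% of all genes tested) and in 3 every one lay below (18.0%). The largest rises were in the spindle motor KIF11, in separase and in checkpoint genes, and the falls were in ANLN, CDC25B and CDC25C.

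FOXM1 was at 1316 and 1430 with NKX2-1 siRNA 1 and at 1076 and 1086 with siRNA 2, against 956 to 1003 in the controls. All 4 libraries were above the controls, but the siRNAs differed (log2 fold change 0.32, SE 0.05, adjusted p = 4.42e-06; difference between siRNAs 0.34, SE 0.06, adjusted p = 0.00015). MYBL2 was at 2469 and 2621 with siRNA 1 and at 1816 and 1872 with siRNA 2, against 1888 to 2072. It was above the controls with siRNA 1 (0.37, SE 0.05) and slightly below them with siRNA 2 (-0.09, SE 0.05, adjusted p = 0.168), and the difference was 0.46 (SE 0.05, adjusted p = 1.57e-07).

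CDK1 rose (0.24, SE 0.05), as did CCNA2 (0.13, SE 0.04) and CCNB1 (0.11, SE 0.03), and CCNB2 did not pass the test (0.06, SE 0.04). CDC25B was at 7351 and 7587 with siRNA 1 and at 6766 and 6582 with siRNA 2, against 8674 to 8735 in the controls. Both siRNA groups lay below the controls without overlap (log2 fold change -0.30, SE 0.03; 1.23-fold lower; adjusted p = 1.29e-08). CDC25C was at 413 in both siRNA 1 libraries and at 366 and 417 with siRNA 2, against 446 to 479 (log2 fold change -0.21, SE 0.07, adjusted p = 0.0143); this call ended without si-control replicate 3 or siRNA 2 replicate 1. PLK1 (0.12, SE 0.05, adjusted p = 0.0551) and AURKA (-0.08, SE 0.03, adjusted p = 0.0539) did not pass the test.

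Of the checkpoint genes 4 of 5 rose. MAD2L1 was at 935, 885 and 867 in the controls, at 1077 and 1059 with siRNA 1 and at 1218 and 1181 with siRNA 2, without overlap (log2 fold change 0.34, SE 0.05; 1.26-fold higher; adjusted p = 2.81e-06). BUB3, which docks BUB1 and BubR1 to kinetochores, was at 3568 to 3658 in the controls and at 4314 to 4552 in the knockdown libraries (log2 fold change 0.30, SE 0.03, adjusted p = 4.49e-08). SPC24 was at 439 and 460 with siRNA 1 and at 388 and 383 with siRNA 2, against 299 to 359 (log2 fold change 0.31, SE 0.08, adjusted p = 0.00228). Of the 7 centromere and kinetochore genes 4 rose, and 3 did not pass the test (NDC80, NUF2 and SPC25, at 0.05 to 0.19).

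In the passenger complex only INCENP passed the test over both siRNAs (0.14, SE 0.04). BIRC5 was at 7115 and 7071 with siRNA 1 and at 5144 and 5070 with siRNA 2, against 5966, 6019 and 5923 in the controls. The siRNAs moved it in opposite directions, without overlap: it rose with siRNA 1 (0.25, SE 0.04, adjusted p = 2.07e-06) and fell with siRNA 2 (-0.23, SE 0.04, adjusted p = 1.27e-05), and it was the only gene of the 44 called in opposite directions by a pair of reagents. KIF11 was at 2224, 2175 and 2104 in the controls, at 2997 and 2683 with siRNA 1 and at 2866 and 2721 with siRNA 2 (log2 fold change 0.38, SE 0.04; 1.30-fold higher; adjusted p = 3.06e-08). This was the largest rise over both siRNAs, and no library overlapped with the controls. NUSAP1 was at 2894 and 2695 with siRNA 1 and at 2236 and 2292 with siRNA 2, against 2021 to 2129 (log2 fold change 0.28, SE 0.04; difference between siRNAs 0.30, SE 0.05, adjusted p = 4.39e-05).

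ANLN showed the largest fall. It was at 2510, 2353 and 2476 in the controls, at 1867 and 1770 with siRNA 1 and at 2073 and 2004 with siRNA 2. Both groups lay below the controls (log2 fold change -0.35, SE 0.04; 1.27-fold lower; adjusted p = 4.94e-08). ESPL1 was at 1675 and 1828 with siRNA 1 and at 1574 and 1392 with siRNA 2, against 1198 to 1294 (log2 fold change 0.36, SE 0.05; 1.28-fold higher; adjusted p = 1.06e-06). KIF20A, KIF23, UBE2C, CDC20 and TOP2A rose by 0.14 to 0.29, and PRC1, ECT2 and PTTG1 did not pass the test.

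Markers moved with the NKX2-1 siRNAs as well. The neuroendocrine sum was at 44590 to 50288 against 41148 to 41675 in the controls, without overlap. Averaged over both siRNAs 3 of its 6 genes were higher (INSM1, CHGA and GRP, by 0.45, 0.19 and 0.14). GRP, however, was at 4209 and 4100 with siRNA 1 and at 6472 and 6509 with siRNA 2, on opposite sides of the controls at 4674 to 4790. PECAM1 was at 128 to 139 with siRNA 1 and at 404 to 414 with siRNA 2, on opposite sides of the controls at 327 to 341. The fibroblast sum was at 66.1 to 115 against 84.9 to 115, and mitochondrial genes took 7.16% to 8.75% of reads against 9.95% to 10.3%. The part of these differences in the mitotic results was not tested.

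With NKX2-1 siRNA 1 alone 21 genes were higher and 3 lower (17.4% and 21.5% of all genes tested), and with siRNA 2 alone 22 and 6 (16.0% and 17.5%). Higher with both were 13 (8.88% of all genes) and lower with both 2, ANLN and CDC25B (10.2%). Tested directly, 12 genes were higher and 5 lower with siRNA 1 than with siRNA 2 (11.7% and 14.8%). Without siRNA 2 replicate 1 the count higher with siRNA 2 was 12 and without its replicate 2 it was 14. Without siRNA 1 replicate 1 the count lower over both siRNAs was 5, and in the direct test the count lower was 2 without siRNA 1 replicate 2, and the counts were 7 and 2 without siRNA 2 replicate 2. The calls of CCNA2, CDC20, CENPE, MYBL2 and ASPM over both siRNAs each ended without at least 1 of the si-control replicates.

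**Figure D4:**
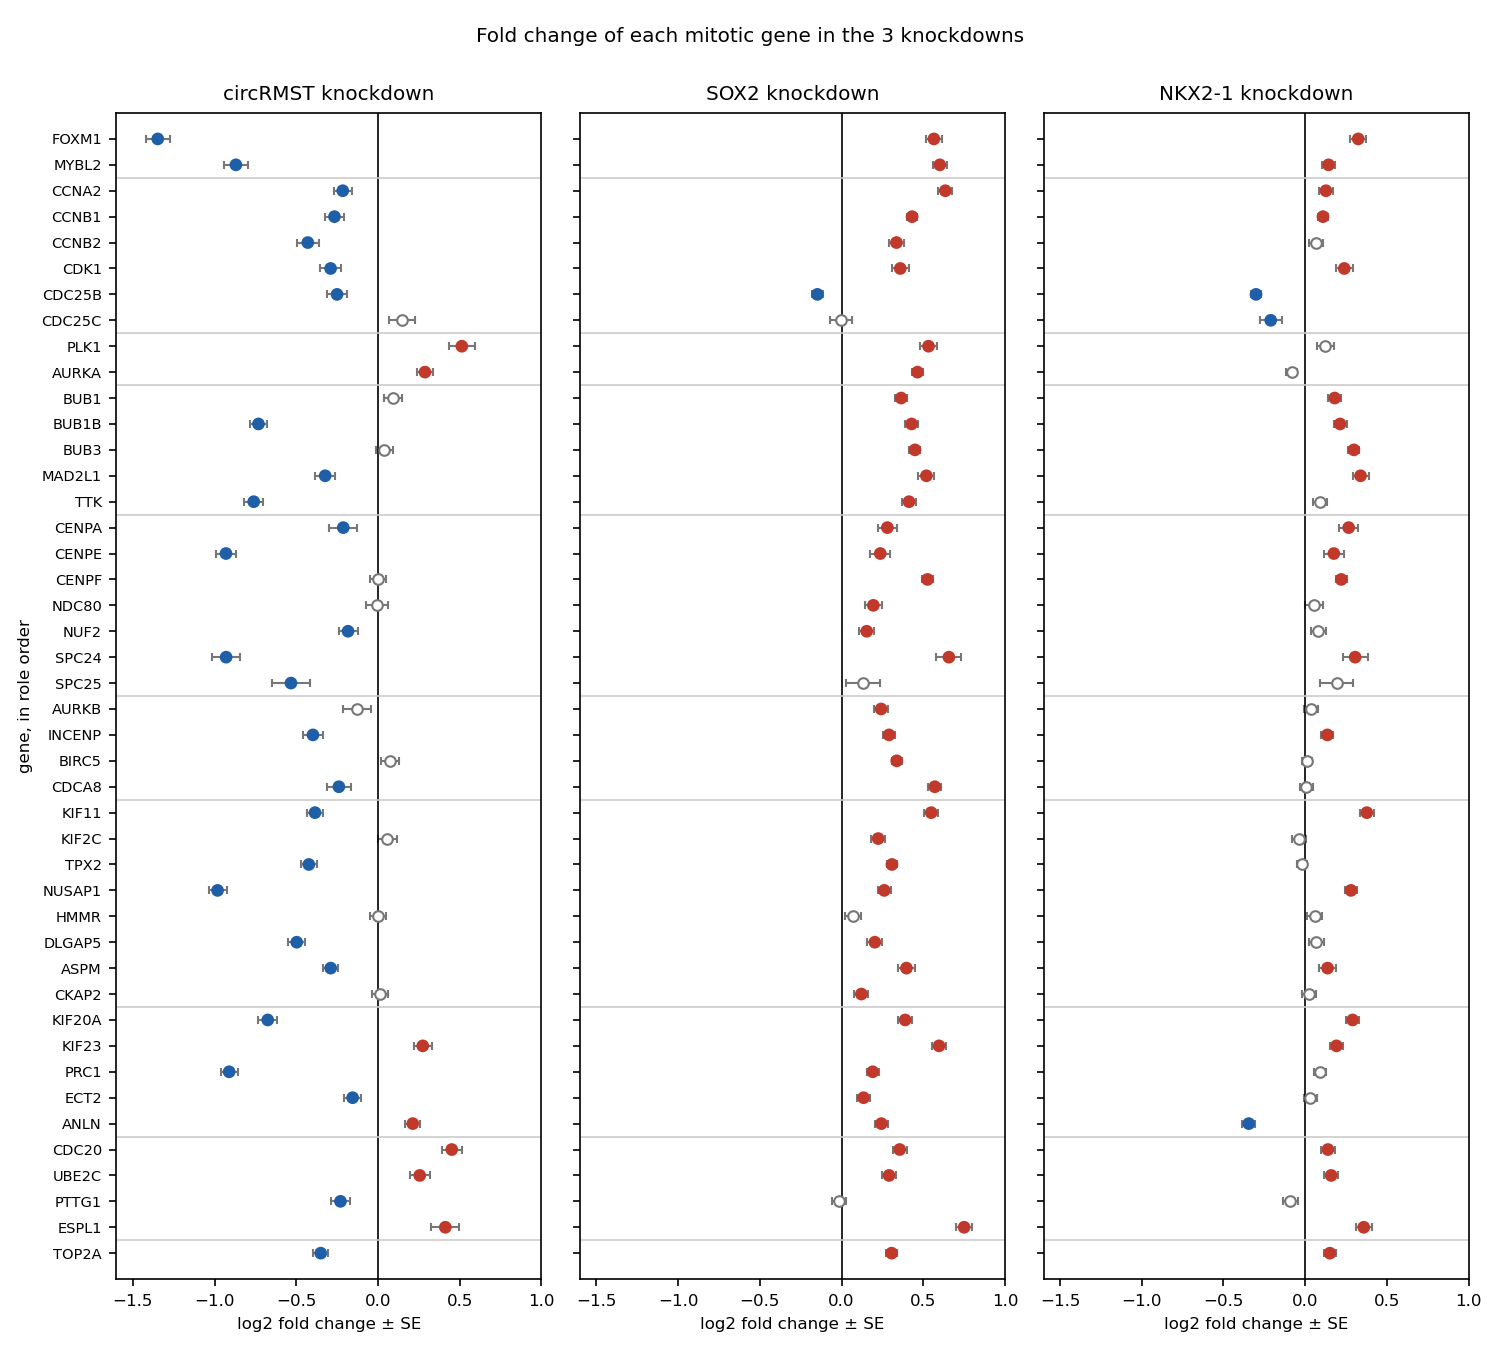
Points are log2 fold changes and bars ± SE for the 44 genes in the circRMST, SOX2 and NKX2-1 knockdowns, ordered by role; filled points passed an adjusted p under 0.05 (red higher, blue lower) and open points did not. FOXM1 is at -1.35 after circRMST knockdown and at 0.56 and 0.32 after SOX2 and NKX2-1 knockdown, while PLK1 and ESPL1 lie right of 0 in all 3 panels.

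Set directly against each other, with the control libraries used only for the estimate of the spread, the SOX2 siRNA libraries were higher than the NKX2-1 siRNA libraries for 37 of the 44 genes and lower for 0 by limma (27.9% and 28.0% of all genes tested), with a median log2 difference of 0.20. Fitted without the control libraries the count higher was 35. At an unadjusted p under 0.05 the count lower was also 0, as it was by edgeR (35 higher) and DESeq2 (34 higher). In 22 genes all 4 SOX2 libraries lay above all 4 NKX2-1 libraries (18.0% of all genes tested). The largest difference was in ANLN, at 2851 to 2956 with the SOX2 siRNAs and 1770 to 2073 with the NKX2-1 siRNAs (log2 difference 0.59, SE 0.04, adjusted p = 1.44e-13). ANLN thus lay on opposite sides of the controls in the 2 knockdowns. CDCA8, at 2362 to 2448 against 1551 to 1693, differed by 0.56 (SE 0.04, adjusted p = 3.66e-13), and AURKA, at 6254 to 6546 against 4194 to 4618, by 0.55 (SE 0.03, adjusted p = 3.4e-14). CCNA2 (0.51, SE 0.04), MYBL2 (0.46, SE 0.04) and PLK1 (0.41, SE 0.05) followed. CENPA, CENPE, NUF2, SPC25, NUSAP1, HMMR and PTTG1 did not pass the test, with differences between -0.06 and 0.08.

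The circRMST and SOX2 comparisons share no library, and their calls are given side by side. Of the 44 genes, 24 were lower after circRMST knockdown and higher after SOX2 knockdown, among them FOXM1, MYBL2, CDK1, the cyclins, TTK, BUB1B, CENPE, SPC24, NUSAP1, PRC1 and TOP2A. Higher in both were 7, namely PLK1, AURKA, KIF23, ANLN, CDC20, UBE2C and ESPL1, and lower in both was CDC25B. SPC25 and PTTG1 were lower after circRMST knockdown only by their calls. Called only as higher after SOX2 knockdown were 8 genes, and CDC25C and HMMR were called in neither. Of the 44 genes 61.4% were lower after circRMST knockdown and 88.6% higher after SOX2 knockdown. The 24 opposite calls are close to the number that these shares alone would give, so they do not show that the 2 responses are linked gene by gene. The share of all genes tested with each pair of calls was not counted. Among the 24, CCNA2, CENPA, NUF2, CDCA8 and ECT2 were not called lower with both shRNAs, and PRC1 and NUF2 were not called higher with both SOX2 siRNAs. Of the genes with the same call in both knockdowns, KIF23 and UBE2C were not called higher with both shRNAs, and CDC25B was not called lower with both. The libraries differ in RNA preparation, delivery and duration, so the sizes of the changes were not tested against each other.

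**Figure D5:**
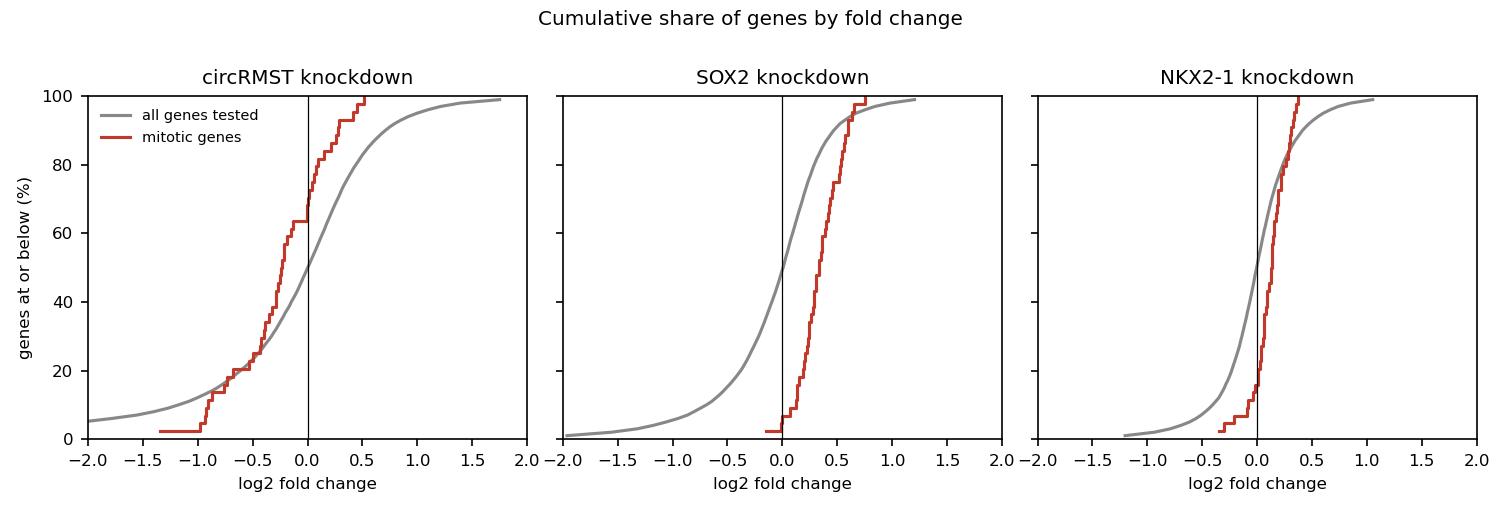
Each panel gives the percentage of genes at or below a log2 fold change, in grey for all genes tested (19068 in the circRMST panel, 16750 in the others) and in red for the 44 mitotic genes. The red line lies left of the grey line over most of its length in the circRMST panel (median -0.23) and right of it in the SOX2 (median 0.34) and NKX2-1 panels (median 0.13).

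Further genes of the pathway, in lists that hold none of the 44, were also counted. Their counts are read against the shares of all genes tested, which were 25.9% lower and 27.8% higher after circRMST knockdown, 28.7% lower and 27.6% higher after SOX2 knockdown, and 21.4% lower and 18.5% higher after NKX2-1 knockdown. Of 38 other G2/M genes 21 were lower (55.3%) and 4 higher (10.5%) after circRMST knockdown (median log2 fold change -0.19). After SOX2 knockdown 31 were higher (81.6%) and 1 lower (0.35), and after NKX2-1 knockdown 19 were higher and 2 lower (0.12). After circRMST knockdown the largest changes were in HMGB2, a chromatin protein (-1.53, SE 0.06), in SGO1, which protects centromeric cohesin (-1.27, SE 0.07), and in LMNB1, lamin B1 (-0.78, SE 0.05). After SOX2 knockdown they were in CIT, the citron kinase of the midbody (0.99, SE 0.05), CENPM (0.62, SE 0.08) and CEP55 (0.59, SE 0.04), and CIT also led after NKX2-1 knockdown (0.69, SE 0.05), ahead of HMGB2 and KIF22 (0.33 each, SE 0.04). Between SOX2 and NKX2-1 siRNAs 26 were higher and 1 lower with SOX2 siRNAs (27.9% and 28.0% of all genes).

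Of 8 condensin subunits, which compact the chromosomes, 6 were lower and 1 higher after circRMST knockdown, led by SMC2 (-0.54, SE 0.05), NCAPH (-0.50, SE 0.07) and NCAPG (-0.46, SE 0.05). After SOX2 knockdown 7 were higher and the other did not pass, led by NCAPH (0.57, SE 0.05), and after NKX2-1 knockdown 8 were higher, led by SMC2 (0.33, SE 0.04). The 15 genes listed for the anaphase-promoting complex are its subunits and the activator FZR1. Of these 15, 7 were lower (46.7%) and 1 higher after circRMST knockdown, with ANAPC13 (-1.03, SE 0.09) lowest and CDC27 (0.63, SE 0.05) as the exception. After SOX2 knockdown 8 were higher (53.3%) and the others did not pass, and after NKX2-1 knockdown 5 were higher (33.3%) and 3 lower (20.0%, near the 21.4% of all genes). The DREAM and MuvB complexes repress cell-cycle genes in resting cells and hold the partners of MYBL2. The 12 genes listed for them include the kinase DYRK1A, which is not a subunit. Of the 12, 3 were higher (25.0%) and 4 lower (33.3%) after circRMST knockdown, near the 27.8% and 25.9% of all genes. E2F5, a repressive E2F, rose most there (1.27, SE 0.07), while LIN52 (-0.38, SE 0.08) and LIN9 (-0.37, SE 0.08) fell. After SOX2 knockdown 8 were higher (66.7%) and 3 lower (25.0%), led by LIN9 (0.67, SE 0.07), and after NKX2-1 knockdown 4 were higher (33.3%) and 2 lower (16.7%).

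Of 7 genes whose products hold CDK1 back, 4 were higher (57.1%, against 27.8% of all genes) and 1 lower (14.3%, against 25.9%) after circRMST knockdown. CDKN1A (p21), an inhibitor of cyclin-dependent kinases, rose by 1.21 (SE 0.07) and GADD45A, a stress-induced inhibitor of CDK1 and cyclin B1, by 1.01 (SE 0.07), whereas CDKN1C (p57) was lower (-1.14, SE 0.32). After SOX2 knockdown 3 were higher and 3 lower (42.9% each, against 27.6% and 28.7%), with GADD45A (-0.74, SE 0.05) and CDKN1C (-0.71, SE 0.14) lower and CDKN1A higher (0.51, SE 0.03). After NKX2-1 knockdown 3 were higher (42.9%, against 18.5%) and 2 lower (28.6%, against 21.4%), with CDKN1C (0.45, SE 0.14) and CDKN1B (p27; 0.31, SE 0.05) higher and GADD45A lower (-0.37, SE 0.05).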

How the data were processed

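Gene-level expression tables from 17 RNA-seq libraries of SHP77 cells were used: 6 of total RNA from shRNA cells and 11 from siRNA cells. The deposited values are size-factor normalized counts, a signal that is never negative, and each table was normalized on its own. Per the submitters' processing notes the tools were cutadapt 2.5, STAR 2.5.2b and DESeq2 with the hg38 build; the counting program, its strand setting and the annotation are not given in the sources used here. Dividing by the smallest step of each library gave whole reads for 100% of values (within 0.05 reads), which are the source of the depths given. Non-human features (55 and 38) and PAR_Y copies (7 and 11) were left out.

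Each whole table was tested with limma 3.58.1 (R 4.3.3) on log2(normalized count + 1) with group means, a mean-variance trend and two-sided tests, over genes averaging 10 or more normalized counts (19068 and 16750), with Benjamini-Hochberg adjustment and a threshold of 0.05. A knockdown value averages its 2 reagents against the control, and its SE holds the spread within groups, not that between the reagents. Fold changes are on the log2(value + 1) scale. On simulated data the circRMST test (19068 genes, 200 changed) recovered 76% of 1.5-fold and 92.5% of 2-fold changes, and the SOX2 test (16750 genes) 93% and 100%. The changed genes were drawn without those at the lowest levels. Changes under 1.5-fold, the size of most calls here, were not simulated, so these rates do not describe them. Alternatives were other pseudocounts, filters and scalings, limma without the trend or with fewer groups, a replicate block, leaving out each library, and edgeR 4.0.16 and DESeq2 1.42.0 on the recovered reads.

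The genes, lists and tests were chosen with earlier results of these data known. Named are FOXM1 and MYBL2, per knockdown and for SOX2 against NKX2-1 the 6 largest rises and 6 largest falls that passed, per pair of reagents the 4 largest differences that passed, and from each further list the 3 largest changes that passed; other genes appear with their role group. In positions taken from RefSeq (GRCh38.p14), 19 of the 44 genes overlap another gene, 8 of them a protein-coding gene, and 11 have a named pseudogene copy; their reads may be shared, which was not tested. One neuroendocrine marker is not reported here.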

Additional observations from a re-analysis of the deposited data

Results flagged for a closer look

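BIRC5 (survivin) answered the NKX2-1 siRNAs in opposite directions. It was at 7115 and 7071 normalized counts with siRNA 1 and at 5144 and 5070 with siRNA 2, against 5966, 6019 and 5923 with si-control, and the direct difference between the siRNAs was 0.47 in log2 units (SE 0.04, adjusted p = 3.65e-10, limma). All 4 libraries lay outside the range of the controls, on the side of their siRNA. It was picked out because the 2 siRNAs against the same gene moved it in different directions and the test of their difference passed. Of the 17 genes that differed between the NKX2-1 siRNAs, 6 kept their call under every alternative tried.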

How the results depend on the processing

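Of the calls per gene, 24 of 34 for circRMST, 37 of 40 for SOX2, 19 of 26 for NKX2-1 and 27 of 37 for SOX2 against NKX2-1 passed under every alternative, and none reversed. Between reagents, 0 of 11 did so for the circRMST shRNAs, 2 of 7 for the SOX2 siRNAs and 6 of 17 for the NKX2-1 siRNAs. edgeR gave 27 lower and 7 higher for circRMST, 39 higher and 1 lower for SOX2 and 25 higher and 3 lower for NKX2-1, and DESeq2 gave 27 and 7, 39 and 1, and 22 and 3. Limma without a trend gave 0 higher for circRMST shRNA 2, 0 higher and 0 lower between the circRMST shRNAs, 0 lower for SOX2 siRNA 1, 3 higher and 0 lower between the SOX2 siRNAs, 14 higher for NKX2-1 siRNA 2, and 7 higher and 3 lower between the NKX2-1 siRNAs. Equal library totals gave 1 higher for circRMST shRNA 2, 32 higher for NKX2-1 siRNA 1 and 3 lower between the NKX2-1 siRNAs. Without mitochondrial and 7SL genes they gave 3 higher and 9 lower between the circRMST shRNAs, with the median turning from 0.05 to -0.024, and 3 lower between the NKX2-1 siRNAs. Quantile normalization gave 2 higher and 11 lower between the circRMST shRNAs, a median of -0.0092 there, and 1 lower for SOX2 against NKX2-1. With no filter on low values the counts between the circRMST shRNAs were 2 and 2, and the count lower for SOX2 siRNA 1 was 0. With only the groups compared, 1 gene was lower between the SOX2 siRNAs. Leaving out each library in turn gave 2 to 6 higher and 3 to 5 lower between the circRMST shRNAs, 0 to 1 lower for SOX2 siRNA 1, 3 to 5 higher and 1 to 3 lower between the SOX2 siRNAs, 2 to 5 lower for NKX2-1, 12 to 24 higher for NKX2-1 siRNA 2, and 7 to 12 higher and 2 to 7 lower between the NKX2-1 siRNAs. The median of that last difference, 0.02 with all libraries, ranged from -0.017 (without siRNA 1 replicate 1) to 0.054 (without siRNA 1 replicate 2), and it was also below 0 without siRNA 2 replicate 2. The cause of these changes was not tested.

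Libraries that share a replicate number showed little shared deviation (correlations of -0.042 to 0.047 for shRNA libraries and -0.109 to 0.024 for siRNA libraries). In groups of 2 libraries the deviations mirror each other, so these values cannot show whether libraries of the same number were handled together. With a replicate block 26 genes were lower and 7 higher for circRMST, 38 higher and 1 lower for SOX2, 20 higher and 2 lower for NKX2-1 and 35 higher for SOX2 against NKX2-1, and the block gave 0 lower for SOX2 siRNA 1 and 13 higher for NKX2-1 siRNA 2. Between replicates the chi-square of the read counts per degree of freedom was 5.18 to 6.34 for shRNA libraries and 1.51 to 5.83 for siRNA libraries, so counting error, and with it depth, makes up more of the spread in some siRNA groups than in the others.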
